A study of Mus musculus with 8 samples.

Results

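A set of 9 genes of the ventral telencephalon and of GABA synthesis was followed from mouse embryonic stem cells (ESCs) to neural precursor cells (NPCs). They are *Dlx1*, *Dlx2*, *Dlx5*, *Dlx6*, *Gsx2*, *Nkx2-1*, *Lhx6*, *Gad1* and *Gad2*, taken by symbol, and all 9 were found among the 26263 genes counted. RNA-seq libraries of polyadenylated RNA came from 2 male hybrid ESC lines of reciprocal crosses, and each cross is therefore known from 1 line only. The B/J line (BJE2, C57BL/6 x JF1) and the J/B line (JBE6, JF1 x C57BL/6) were each sequenced as ESCs, grown with LIF, BMP4 and a GSK3-β inhibitor, and as NPCs on day 12 of *in vitro* corticogenesis. In that differentiation the cells of both lines grew on Matrigel in a defined default medium with B27 lacking vitamin A and dorsomorphin homolog 1. No gene was deleted or overexpressed, and there were 2 replicates in each of the 4 groups. The labels do not say whether the replicates were separate cultures, so p-values measure the spread between these libraries only.

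The telencephalon has a dorsal part that makes the glutamatergic neurons of the cortex and a ventral part, the ganglionic eminences, that makes GABAergic neurons of the striatum and the cortical interneurons. In the ventral part the homeodomain factor Gsx2 marks progenitors of the lateral eminence, Nkx2-1 specifies the medial eminence and turns on *Lhx6*, and the Dlx factors drive neuronal differentiation and migration. The glutamate decarboxylases encoded by *Gad1* and *Gad2* then make GABA from glutamate, in these neurons and in GABAergic neurons of other brain regions.

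Gene counts totalled 22537138 to 32706015 per library. Levels are given as CPM, a gene's count scaled to 1e6 counts on all genes of its library, and 1 count was worth 0.0306 to 0.0444 CPM. In ESCs every Dlx and *Gsx2* value rests on at most 21 counts, with wide counting error. Stage changes are log2 fold changes of NPCs over ESCs after TMM normalization, tested by the quasi-likelihood method of edgeR, with p-values adjusted (Benjamini-Hochberg) over 16399 genes. SE is an approximate standard error, the absolute log2 fold change divided by the square root of the F statistic of that test. The scaling matters here, because the median change over all genes was 0.17 (log2) with TMM, 0.65 with library totals and 0.80 when the housekeeping genes *Gapdh*, *Gusb* and *Tbp* set the scale. The pluripotency gene *Pou5f1* went from 1640 ± 305 CPM in the ESC libraries to 31.1 ± 18.6 CPM in those of NPCs, and the neural precursor gene *Nes* at 28.9 ± 12.8 and 180 ± 91.6 CPM (SD, n = 4 libraries each). Of 7 neural precursor genes 6 rose (37.5% of all genes did) and 1 fell (31.9% did), *Sox2*, which ESCs also express and which is named here after its values were seen, and their summed CPM overlapped between ESCs (422 to 760) and NPCs (251 to 1030).

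Over both crosses 6 of the 9 genes rose (*Dlx1*, *Dlx2*, *Dlx5*, *Nkx2-1*, *Gad1* and *Gad2*), whereas 37.5% of all genes tested did. *Lhx6* was the 1 member that fell, against 31.9% of all genes. *Dlx6* and *Gsx2* did not pass the test. The median log2 fold change of the 9 genes was 2.08, also with *Nkx2-1* at its ratio to a floor of 3 counts in ESCs. Every NPC library was above every ESC library for 5 of 9 members on library totals (46.7% of all genes) and for 4 of 9 after TMM (35.3% of all genes). All 9 passed the filter on low counts, which asked for 0.37 CPM in enough libraries, but *Dlx5*, *Dlx6*, *Nkx2-1* and *Gad2* reached that level in NPC libraries only and *Dlx2* in 1 ESC library.

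**Figure D1:**
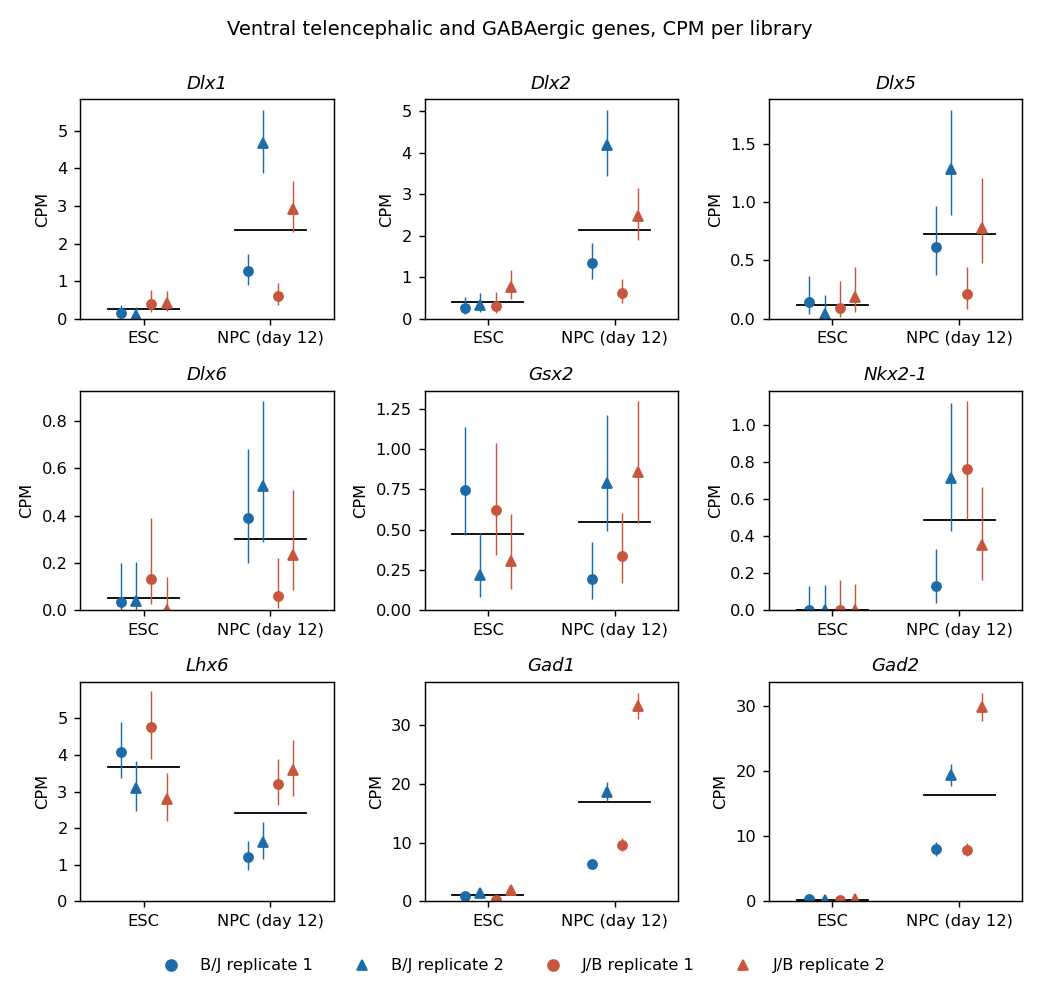
CPM of each of the 9 genes (vertical axes, linear from 0) in ESC and NPC libraries; points are libraries, vertical lines are 95% exact Poisson intervals and black bars are means of 4 libraries. *Gad1* and *Gad2* stand far above their ESC levels in every NPC library, *Gsx2* overlaps between the stages, and *Nkx2-1* has 0 counts in all ESC libraries.

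The enzymes of GABA synthesis were the most abundant members in NPCs, also per transcript length. *Gad1* (chr2:70383416-70432372, plus strand, 17 exons in its canonical transcript) was read at 0.925 and 1.42 CPM in the B/J ESC libraries of replicates 1 and 2 and at 0.222 and 1.96 CPM in the J/B ESC libraries. In NPCs it was at 6.33 and 18.7 CPM in B/J and at 9.63 and 33.3 CPM in J/B. The lowest NPC library was thus above the highest ESC library, and within each cross replicate 2 was the higher NPC library. Its log2 fold change was 3.37 (SE 0.715, adjusted p = 0.00375). Leaving out single libraries moved this value between 2.80, without NPC J/B replicate 2, and 4.49, without ESC J/B replicate 2, and it passed the test each time.

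*Gad2* (chr2:22511862-22583886, plus strand, 16 exons) was in ESCs at 0.32 and 0.182 CPM in B/J and 0.177 and 0.339 CPM in J/B. In NPCs it was at 8.02 and 19.4 CPM in B/J and 7.92 and 29.9 CPM in J/B. The groups did not overlap, and the highest ESC library held only 9 counts. The log2 fold change was 5.46 (SE 0.617, adjusted p = 1.67e-04), and it passed the test under each of the 19 alternatives run, with adjusted p up to 0.00876. Together both Gad genes took 73.4% to 84.9% of the members' counts in NPC libraries and 5.96% to 34.1% in ESC libraries.

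The stretches of 200 bases before the annotated starts of *Gad1* and *Gad2* are shown because both genes rose in each cross and these windows differ in CpG content. They are GRCm39 sequence at chr2:70391403-70391602 for *Gad1* (before its canonical transcript, which begins inside the annotated gene) and chr2:22511662-22511861 for *Gad2*, read on the plus strand, with CG dinucleotides in capitals.
Gad1: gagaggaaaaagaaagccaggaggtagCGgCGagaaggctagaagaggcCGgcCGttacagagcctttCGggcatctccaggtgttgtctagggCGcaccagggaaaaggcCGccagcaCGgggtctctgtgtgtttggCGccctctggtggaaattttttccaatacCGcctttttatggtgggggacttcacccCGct
Gad2: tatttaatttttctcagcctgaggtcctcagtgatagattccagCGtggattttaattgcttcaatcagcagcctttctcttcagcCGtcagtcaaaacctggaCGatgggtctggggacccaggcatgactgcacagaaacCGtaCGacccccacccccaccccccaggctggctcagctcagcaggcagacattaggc
The *Gad1* window holds 11 CG and the *Gad2* window 5, and 65.1% and 40.4% of 21716 protein-coding promoter windows of this length hold fewer. The median of all windows is 7 CG.

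The Dlx genes lie as 2 convergent pairs and encode homeodomain factors. *Dlx1* (chr2:71358457-71364325, plus strand) and *Dlx2* (chr2:71373752-71377102, minus strand) are 9426 bases apart, and *Dlx6* (chr6:6862989-6868568, plus strand) and *Dlx5* (chr6:6877804-6882092, minus strand) 9235 bases apart. *Dlx1* was read at 0.142 and 0.109 CPM in B/J ESCs and 0.399 and 0.415 CPM in J/B ESCs, then at 1.27 and 4.67 CPM in B/J NPCs and 0.612 and 2.93 CPM in J/B NPCs. Every NPC library was above every ESC library, although NPC J/B replicate 1 held only 20 counts. The log2 fold change was 2.82 (SE 0.700, adjusted p = 0.0077), and it kept its call without any single library, at 2.07 to 3.17.

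*Dlx2*, its neighbour, was at 0.249 and 0.328 CPM in B/J ESCs, 0.311 and 0.754 CPM in J/B ESCs, 1.33 and 4.18 CPM in B/J NPCs and 0.612 and 2.46 CPM in J/B NPCs. Here the stages overlapped, because ESC J/B replicate 2 (20 counts) stood above NPC J/B replicate 1 (20 counts in a larger library). When single libraries were left out, the log2 fold change of *Dlx2* ran from 1.245, without NPC J/B replicate 2, to 2.264, without ESC J/B replicate 2. With all libraries it was 1.89 (SE 0.647, adjusted p = 0.0304). This call was lost without ESC B/J replicate 1 (adjusted p = 0.0928), ESC B/J replicate 2 (0.0744), ESC J/B replicate 1 (0.0785), NPC B/J replicate 2 (0.124) or NPC J/B replicate 2 (0.131), and with limma-voom in place of edgeR (0.0665). The window before *Dlx2* is shown as the most CG-rich of the 9, with 22 CG where 92.7% of promoter windows hold fewer (GRCm39, chr2:71377103-71377302, minus strand, CG in capitals).
Dlx2: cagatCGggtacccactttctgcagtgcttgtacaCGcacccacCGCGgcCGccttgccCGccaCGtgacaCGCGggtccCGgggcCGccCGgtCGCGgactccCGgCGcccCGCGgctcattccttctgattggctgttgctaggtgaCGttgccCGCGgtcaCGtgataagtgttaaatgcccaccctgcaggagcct
The palindromic motif TAATTA, the core that many homeodomain proteins bind, was found in 1 of the members' 9 windows, that of *Nkx2-1*, and in 3.96% of all windows. The letters TATAAA, on either strand, were in 1 of 9, that of *Gsx2*, and in 9.57% of all.

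*Dlx5* was read at 0.142 and 0.0365 CPM in B/J ESCs, 0.0887 and 0.189 CPM in J/B ESCs, 0.617 and 1.28 CPM in B/J NPCs and 0.214 and 0.781 CPM in J/B NPCs. The groups did not overlap on library totals but did after TMM, and NPC J/B replicate 1 rested on 7 counts and ESC J/B replicate 2 on 5. Its change of 2.08 on the log2 scale (SE 0.725, adjusted p = 0.0325) was not called without ESC B/J replicate 2 (adjusted p = 0.112), either J/B ESC library (0.0899 without replicate 1 and 0.0542 without replicate 2), NPC B/J replicate 2 (0.115) or NPC J/B replicate 2 (0.153), nor with DESeq2 (0.0505).

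*Dlx6*, the partner of *Dlx5*, gave 1 and 1 counts in B/J ESCs, 3 and 0 in J/B ESCs, 12 and 14 in B/J NPCs and 2 and 6 in J/B NPCs. NPC J/B replicate 1 lay below ESC J/B replicate 1, so the stages overlapped. The change of 1.86 on the log2 scale (SE 0.943, adjusted p = 0.111) did not pass the test. Without ESC J/B replicate 1 it was 3.97 and passed, with adjusted p = 0.0300, and it also passed at 2.50 on the scale of the 3 housekeeping genes (adjusted p = 0.0441) and at 3.67 among the libraries of number 2 (adjusted p = 0.0326).

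All 4 Dlx genes had the same order among NPC libraries on library totals for the extremes, with B/J replicate 2 highest and J/B replicate 1 lowest. The antisense RNA *Dlx1as* shares 3251 exonic bases with *Dlx1* on the opposite strand, and the sources used here do not give how strand was used in counting, so its reads and those of *Dlx1* may be mixed. *Dlx1as* was at 0 counts in all 4 ESC libraries and at 20 and 43 counts in B/J NPCs and 8 and 22 in J/B NPCs. Its pooled NPC counts were 20.1-fold above a floor of 3 counts over the ESC libraries after TMM, without the counting error in NPCs. *Dlx6os1*, the antisense RNA of the other pair, gave 0, 0, 0 and 2 counts in ESCs and 10, 37, 4 and 11 in NPCs (log2 fold change 4.78, adjusted p = 0.0133). Exons on the opposite strand also overlap those of *Gsx2* (523 bases), *Nkx2-1* (110 bases), *Dlx6* (104 bases) and *Gad1* (99 bases). The unknown strand setting limits their counts too.

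*Dlx3* and *Dlx4* lie outside these pairs. *Dlx3*, known for its role in placenta, skin and branchial arches, went from 0.278 ± 0.148 CPM in ESCs to 49.5 ± 26.2 CPM in NPCs (SD, n = 4 libraries each), and rose by 6.94 on the log2 scale (adjusted p = 1.24e-05). Per kilobase of canonical transcript it reached 11.2 to 32.7 CPM in NPCs, where *Dlx2*, the highest of the 4 members, was at 0.247 to 1.69 CPM per kilobase. Its highest NPC library was B/J replicate 1, not B/J replicate 2. *Dlx4*, its neighbour, was at 1.48 ± 0.519 CPM in NPCs (SD, n = 4) and rose by 3.14 on the log2 scale (adjusted p = 9.85e-04).

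**Figure D2:**
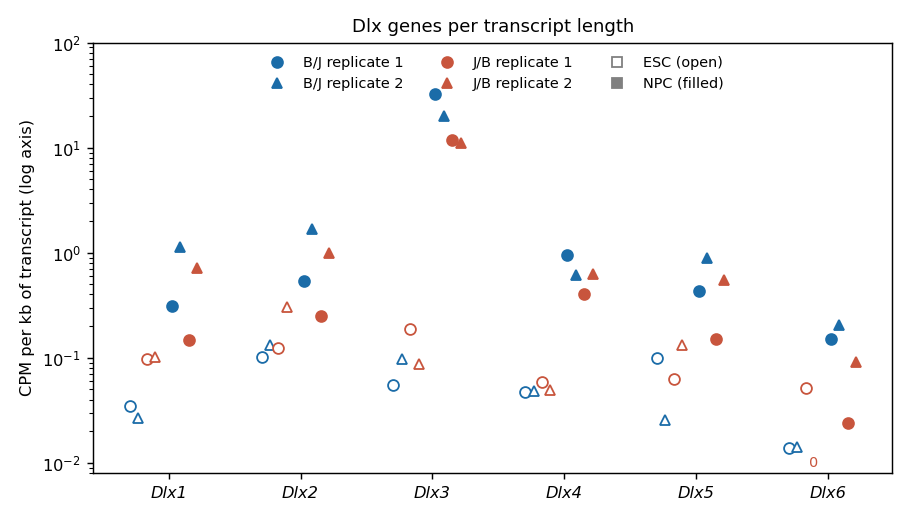
CPM per kilobase of canonical transcript (log axis) of the 6 Dlx genes; open symbols are ESC and filled symbols NPC libraries, colours are crosses, shapes are replicates and 0 marks a library without counts. *Dlx3* at 11.2 to 32.7 is far above the 4 ventral telencephalic Dlx genes in NPCs, and its highest library is another than theirs.

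Among the patterning factors, *Gsx2* (chr5:75236252-75238554, plus strand) was read in ESCs at 0.747 and 0.219 CPM in B/J and 0.621 and 0.302 CPM in J/B. In NPCs it was at 0.195 and 0.79 CPM in B/J and at 0.336 and 0.859 CPM in J/B. The stages overlapped fully, with replicate 1 the higher library in ESCs and replicate 2 in NPCs. The log2 fold change was -0.30 (SE 0.706, adjusted p = 0.716) with TMM, and its sign turned to 0.19 with library totals and 0.39 on the scale of the 3 housekeeping genes. Taken by replicate number, it was -1.87 among the libraries of number 1 (adjusted p = 0.111) and 1.20 among those of number 2 (adjusted p = 0.128).

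*Nkx2-1* (chr12:56578742-56583722, minus strand) had no count in any ESC library, which allows up to 3 counts or 0.107 to 0.133 CPM per library. In NPCs it gave 4 and 19 counts in B/J (0.13 and 0.715 CPM) and 25 and 9 counts in J/B (0.764 and 0.351 CPM). The pooled NPC counts were 12.3-fold above a floor of 3 counts over the 4 ESC libraries after TMM, or 17.2-fold on library totals. Within a cross this ratio was 5.36 in B/J and 6.83 in J/B after TMM. The ratios leave out the counting error in NPCs, and NPC B/J replicate 1 was below the highest of the ESC limits. For *Nkx2-1* edgeR gave adjusted p = 0.00741. Its order among NPC libraries differed from that of the other members, with J/B replicate 1 highest and B/J replicate 1 lowest. *Nkx2-1* is also a factor of the hypothalamus, among other tissues. The summed CPM of 8 hypothalamic genes was 0.712 to 2.15 in ESCs and 19.5 to 52.5 in NPCs (5 higher and 1 lower of 7 tested, against 37.5% and 31.9% of all genes). Those 5 held at most 5 counts in any ESC library and passed the filter through NPC libraries only. The 1 that fell held at most 5 counts in any NPC library and passed through ESC libraries only. The filter thus fixed the direction of these calls. The part of hypothalamic cells in the *Nkx2-1* counts was not tested.

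*Lhx6* (chr2:35971964-35995601, minus strand), the LIM homeodomain factor of medial eminence interneurons, was the most abundant member in ESCs. It was at 4.09 and 3.1 CPM in B/J ESCs and 4.75 and 2.79 CPM in J/B ESCs, and took 41.3% to 70.9% of the members' counts there. In NPCs it was at 1.2 and 1.62 CPM in B/J and 3.21 and 3.59 CPM in J/B. The B/J NPC libraries were below every ESC library, while those of J/B lay within the ESC range on library totals. After TMM all 4 NPC libraries were below every ESC library, as for 31.2% of all genes. Its change of -1.24 on the log2 scale (SE 0.343, adjusted p = 0.0127) rests on the scaling: it was -0.75 with library totals (adjusted p = 0.0778) and -0.58 on the scale of the 3 housekeeping genes (adjusted p = 0.168). In bulk RNA, a change in the share of cells that express a gene and a change in RNA per cell cannot be told apart, for *Lhx6* as for the other members.

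**Figure D3:**
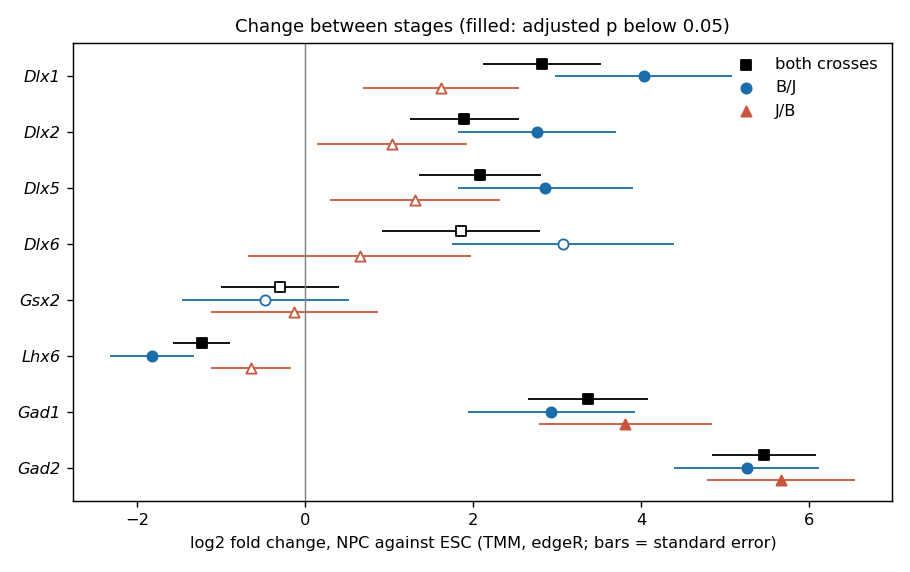
Log2 fold change of NPCs over ESCs (horizontal axis, TMM) for 8 members, over both crosses and in each cross; bars are approximate standard errors (SE as in the text) and filled symbols have an adjusted p below 0.05. *Nkx2-1* is left out because its ESC counts are 0. *Gad1* and *Gad2* are filled in all 3 comparisons, and *Dlx1*, *Dlx2* and *Dlx5* over both crosses and in B/J.

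Taken by cross, 6 of 9 members rose in B/J, against 30.1% of all genes, and 1 fell, against 25.6%. In J/B 3 of 9 rose, against 29.1%, and 0 fell, against 25.3% (0 also at an unadjusted p under 0.05, with DESeq2 and with limma-voom). The members called in J/B were *Gad1*, at 3.81 on the log2 scale (adjusted p = 0.0162), *Gad2*, at 5.67 (adjusted p = 0.00163), and *Nkx2-1* (adjusted p = 0.0324). In B/J these 3 were joined by *Dlx1* (4.03, adjusted p = 0.0133), *Dlx2* (2.76, adjusted p = 0.0378) and *Dlx5* (2.86, adjusted p = 0.0473), with *Gad1* at 2.93 (adjusted p = 0.0369), *Gad2* at 5.26 (adjusted p = 0.00191) and *Nkx2-1* at adjusted p = 0.037. *Lhx6* fell by 1.83 in B/J (adjusted p = 0.0155) and was at -0.64 in J/B (adjusted p = 0.278). In J/B, *Dlx1* was at 1.61 (adjusted p = 0.173), *Dlx2* at 1.03 (adjusted p = 0.351) and *Dlx5* at 1.31 (adjusted p = 0.297). Without NPC J/B replicate 2 these 3 values were 0.11, -0.27 and 0.14.

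These calls within a cross rest on 2 libraries a stage. In B/J, *Dlx1*, *Dlx2* and *Gad1* lost theirs without ESC replicate 1, ESC replicate 2 or NPC replicate 2 (adjusted p from 0.07 to 0.0800 for *Dlx1*, 0.126 to 0.221 for *Dlx2* and 0.114 to 0.172 for *Gad1*). *Nkx2-1* lost its B/J call without the same libraries or either J/B NPC library (0.0701 to 0.159), *Dlx5* without any of the 8 libraries (0.0577 to 0.227), and *Lhx6* without ESC replicate 1 or either NPC library (0.0549 to 0.0893). In J/B, *Gad1* was not called without NPC replicate 2 (adjusted p = 0.0944), nor *Nkx2-1* without any one of the 4 J/B libraries (0.0762 to 0.122). The J/B change of *Gad1* was 2.67 without NPC replicate 2 and 6.06 without ESC replicate 2. *Gad2* kept its call in both crosses whichever library was left out.

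The difference between the crosses was tested itself. For the interaction of stage and cross edgeR called 0 of 9 members and 0% of all genes, with 0 members and 573 genes at an unadjusted p under 0.05. DESeq2 called 11 genes and no member, and limma-voom 0 genes. The largest fitted interaction was that of *Dlx6*, at -2.42 on the log2 scale (J/B minus B/J) with an SE of 1.95, and that of *Dlx1* was -2.42 with an SE of 1.37. Without ESC J/B replicate 1 the sign for *Dlx6* turned, to 1.80, and that for *Dlx1* ran from -3.93 to -1.25 when single libraries were left out. The difference in calls of the Dlx genes is therefore not shown to be a difference between the lines.

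Between the J/B and B/J NPCs no member was called, and 0.0061% of all genes was, which is 1 gene, *Firre*, named here after its value was seen. DESeq2 called 70 genes and limma-voom 1 gene, none of them a member. *Lhx6* alone had an unadjusted p under 0.05 (0.0378), at 3.4 ± 0.269 CPM in J/B and 1.41 ± 0.295 CPM in B/J (SD, n = 2 libraries each), a log2 difference of 1.22 (SE 0.488, adjusted p = 0.766 by edgeR). The log2 differences, J/B minus B/J, were -1.68 to -0.79 for the 4 Dlx members and 0.42 to 0.73 for both Gad genes, with standard errors of 0.677 to 1.12 and adjusted p of 0.816 or more. Single libraries turned some of these signs: without NPC B/J replicate 2 *Dlx1* was at 0.37 and *Dlx2* at 0.096, and without NPC J/B replicate 2 *Gad1* was at -0.42 and *Gad2* at -0.83.

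Compared within each replicate number on library totals, the J/B NPC library was below that of B/J in both numbers for the 4 Dlx members, 4 of 9 against 28.7% of all genes. It was above in both for *Gsx2*, *Lhx6* and *Gad1*, 3 of 9 against 37.8%, and on either side for *Nkx2-1* and *Gad2*.

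The members also differed between the replicates of a cross. In B/J NPCs replicate 2 was above replicate 1 for 9 of 9 members after TMM, as for 49.2% of all genes. In J/B it was so for 8 of 9, as for 50.2% of all genes, with *Nkx2-1* the exception, and in both crosses together for 8 of 9 against 32.6%. The members summed to 19.5 and 51.8 CPM in B/J NPCs and 23.4 and 74.4 CPM in J/B NPCs, and to 5.44 to 6.75 CPM in ESCs. Within the libraries of number 2 the log2 fold changes were 3.39 for *Dlx1*, 2.15 for *Dlx2* and 2.70 for *Dlx5*, with adjusted p from 0.00384 to 0.0254. Within number 1 they were 1.30, 1.21 and 1.26, with adjusted p from 0.268 to 0.313. *Gad1*, at 3.42 and 3.45, and *Gad2*, at 4.50 and 6.09, were called within both numbers. These fits by number were added after the data were seen, with 2 libraries a stage in each. Of 16399 genes, 6386 were higher within number 2 and 4139 within number 1. The difference between the numbers was not tested.

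Markers of other cells were summed in the same libraries. The summed CPM of 7 neuronal genes (*Dcx*, *Map2* and others) was 319 and 1170 in B/J NPCs and 915 and 1850 in J/B NPCs, with 278 to 373 in ESCs. Over both crosses 6 of these 7 rose and *Stmn2*, named after its values were seen, fell (adjusted p = 0.0095), against 37.5% and 31.9% of all genes. That of 10 trophoblast genes was 3970 and 2190 in B/J NPCs and 2150 and 1500 in J/B NPCs, with 52.1 to 171 in ESCs, so that it was higher in replicate 1 of each cross. That of 10 neural crest and branchial arch genes was 210 and 217 in B/J NPCs and 107 and 226 in J/B NPCs, with 29.5 to 62.1 in ESCs. The part of these cells in the members' spread was not tested.

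**Figure D4:**
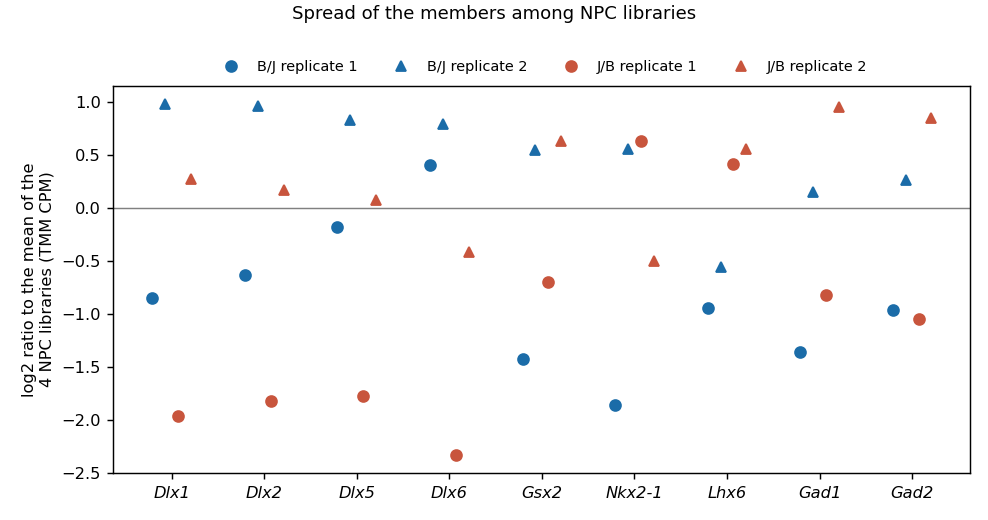
Log2 ratio of each NPC library to the mean of the 4 NPC libraries (vertical axis, TMM CPM) for the 9 members; colours are crosses and shapes are replicates. Triangles (replicate 2) lie above the circle of the same cross for every member except *Nkx2-1* in J/B, and J/B replicate 1 is lowest for the 4 Dlx genes.

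Per kilobase of canonical transcript, the mean levels in NPCs ran from *Gad1* (4.09 CPM) and *Gad2* (2.67) through *Dlx2* (0.866), *Lhx6* (0.668), *Dlx1* (0.576), *Dlx5* (0.505), *Gsx2* (0.325) and *Nkx2-1* (0.204) to *Dlx6* (0.118). The ranges over 4 libraries overlapped for each pair of neighbours in this order. The lowest *Gad2* library (1.30) was above the highest of *Dlx1* (1.13) and of *Lhx6* (0.998). *Gad1* stood above 52.2% of the 20308 genes with a length and counts in NPCs, and the 7 transcription factors above 20.5% to 36.1%, so they were lowly expressed genes. In ESCs *Lhx6* came first, at 1.02 CPM per kilobase, and its lowest library (0.776) was above every other member's highest (0.472).

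Other genes of the same pathways were counted from lists. Of 21 further regulators of ventral progenitors and interneurons, 20 were tested, 16 rose and 3 fell. This and the following counts over both crosses stand beside the 37.5% of all genes that rose and the 31.9% that fell. Some listed genes, *Erbb4* and *Shh* among them, had hardly any ESC counts and passed the filter through NPC libraries only. Such genes could only be called higher, so these counts are descriptive. *Nr2f2*, a nuclear receptor of the caudal eminence that is also widely expressed in mesenchyme, had the highest CPM of them in NPCs, going from 0.118 ± 0.0441 CPM in ESCs to 233 ± 65.9 CPM in NPCs (SD, n = 4). Those that fell were the oligodendrocyte and progenitor factors *Olig1* and *Olig2* and the ETS factor *Etv1*. *Gsx1*, the close relative of *Gsx2* and named here after its values were seen, rose from 0.115 ± 0.0308 to 6.66 ± 3.12 CPM (SD, n = 4), or by 5.31 on the log2 scale (adjusted p = 1.79e-04).

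Of 9 genes for storing, moving and degrading GABA, 7 rose. The chloride importer *Slc12a2* had the highest CPM, with 86.3 ± 20.7 CPM in the ESC and 90.4 ± 17.6 CPM in the NPC libraries (adjusted p = 0.0958), and the GABA transporter *Slc6a13* had the largest change, of 5.20 (adjusted p = 0.00259). The vesicular GABA transporter *Slc32a1*, also named after its values were seen, rose from 0.409 ± 0.158 to 8.46 ± 5.19 CPM (SD, n = 4). Of 17 interneuron and striatal subtype genes 11 were tested and 8 rose. *Erbb4*, the neuregulin receptor of migrating interneurons, had 0 counts in ESCs and 92 to 782 counts in NPCs. In the Sonic hedgehog pathway, which patterns the ventral brain, 9 of 13 genes rose and 2 fell. The ligand *Shh* itself went from 1 count over the 4 ESC libraries to 18.7 to 159 CPM in NPCs, highest in J/B replicate 1.

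GABAergic neurons also form outside the telencephalon. Of 8 genes of midbrain, hindbrain and spinal GABAergic lineages 6 rose over both crosses, and their summed CPM was 9.27 to 33.3 in ESCs and 179 to 240 in NPCs. *Gata2*, which selects the GABAergic fate in midbrain and is also a trophoblast factor, had the highest CPM, at 90.7 ± 61.4 CPM in NPCs, and *Lhx5* changed most, from 0.028 ± 0.036 to 28.6 ± 14.2 CPM (SD, n = 4). The share of *Gata2* in the sum varied, with 175 of 227 CPM in NPC B/J replicate 1 and 43.1 of 231 CPM in NPC J/B replicate 2. Of 9 dorsal telencephalic genes 7 rose, not among them *Pax6* (adjusted p = 0.0606), with a summed CPM of 47.4 and 135 in B/J NPCs and 134 and 376 in J/B NPCs. Which region the *Gad1* and *Gad2* reads came from was not tested.

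The 5 genes whose profile over the 8 libraries was most like the mean profile of the members were *Oip5os1*, *Pcdhga4*, *A730008H23Rik*, *Pnoc*, the precursor of the neuropeptide nociceptin, and *Slc6a5*, the glycine transporter of inhibitory neurons. Their Pearson correlations were 0.987 to 0.993 among 14076 genes, as a description of 8 libraries in which any gene that changes with the stage correlates.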

How the data were processed

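The deposited values are raw counts of reads per gene, which the authors made from paired-end reads. TopHat2 placed the reads on mm39, masked at SNP positions and annotated from refGene, and only properly paired alignments of mapping quality 20 or more were kept. The submitters' processing notes also name HTSeq, DESeq2 and edgeR. Not given in the sources used here are the kit (TruSeq Stranded mRNA or NEBNext Ultra II) and instrument of each library and the strand setting of the counting. Reads without a gene (5.76% to 10.9%) or shared by genes (up to 0.554%) were left out.

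The tests were run with edgeR 4.0.16 under R 4.3.3 (TMM, filterByExpr with a minimum count of 10, robust quasi-likelihood test, 4 group means, common dispersion 0.113, threshold 0.05). Alternatives used DESeq2 1.42.0, limma 3.58.1 (voom), other scalings and filters, a replicate block and left-out libraries, and, added after seeing the data, each replicate number alone and a block within each stage. Poisson intervals (95%) and the floor of 3 counts cover counting error only.

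The members and lists were chosen with earlier results of these data known. Values are given for all members, and in other lists for antisense or neighbouring genes, other Dlx genes, and the gene with the highest CPM in NPCs or the largest called change, besides the 5 genes most like the members' mean log2(TMM CPM + 1) and *Pou5f1* and *Nes*. Positions, exons and the 200-base windows come from GENCODE vM39 on GRCm39. A further marker list for *Nkx2-1* is not reported here.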

Additional observations from a re-analysis of the deposited data

Results flagged for a closer look

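*Dlx2* in ESCs stood apart in J/B replicate 2, which was read at 0.754 CPM while the other 3 ESC libraries were at 0.249 to 0.328 CPM. The gap took most of the range of the 4 libraries. It was the only such gap among 17 tests of 9 genes in both stages (*Nkx2-1*, at 0 in all ESC libraries, was tested in NPCs only), and chance alone gives about 1 in 20.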

How the results depend on the processing

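Over both crosses the 6 members higher in NPCs became 2 among the libraries of number 1 alone (where 4139 of 16399 genes were higher, against 6145 with all libraries). They became 7, with *Dlx6*, in number 2 alone (6386 genes higher) and with housekeeping scaling. The 1 lower became 0 with library totals, with scaling to *Gapdh*, *Gusb* and *Tbp*, and within number 1 (3556 genes lower) or number 2 alone (5536 genes lower). Over all genes, 8016 were higher and 3421 lower with library totals, and 8469 higher and 2824 lower with housekeeping scaling, against 6145 and 5233. Leaving out single libraries gave 4 to 6 members and 5590 to 6167 genes higher. Within B/J, leaving out single libraries gave 1 to 5 members higher and 0 to 1 lower (3212 to 5212 and 2945 to 4261 of all genes), and scaling to the 3 housekeeping genes gave 0 lower. Within J/B, leaving out single libraries gave 1 to 3 higher (3082 to 4582 of all genes). Of 754 single-gene values under an alternative, 689 kept their direction and side of the threshold or were not called before and after, 61 lost the call, 4 gained it and 0 called values changed sign. Over both crosses limma-voom lost the call of *Dlx2* (adjusted p = 0.0665) and DESeq2 that of *Dlx5* (adjusted p = 0.0505), leaving 5 higher with each. Of all genes, 6160 were higher with limma-voom and 6345 with DESeq2. Calls within B/J that another tool lost were those of *Dlx2* and *Gad1* with limma-voom (adjusted p = 0.0589 and 0.085) and of *Dlx5* and *Nkx2-1* with DESeq2 (adjusted p = 0.0727 and 0.0777), and within J/B that of *Nkx2-1* with DESeq2 (adjusted p = 0.0662). Without the low-count filter *Dlx5* and *Gad1* lost their B/J calls (adjusted p = 0.0596 and 0.0654), leaving 4 higher (4817 of 21933 genes). The cause of these changes was not tested. Keeping only genes whose mean reached 1 CPM gave no value for *Dlx5*, *Dlx6*, *Gsx2* and *Nkx2-1*. Replicate numbers correlated in their deviations within a stage (0.613 in ESCs, 0.507 in NPCs) and hardly between stages (0.0474 to 0.0919). They are thus not shown to pair samples between the stages, but within a stage libraries of the same number shared deviations. The main test did not model this, so the 4 libraries of a stage may not be independent. A replicate block called 6 members higher and 1 lower over both crosses (6549 and 5461 of all genes), and with it *Nkx2-1* lost its call in B/J (adjusted p = 0.0651) and J/B (adjusted p = 0.0512). A block within each stage lost *Nkx2-1* in B/J (adjusted p = 0.0512) and gained *Dlx6* there (adjusted p = 0.0359). Depth limits the values of the Dlx genes, *Gsx2* and *Nkx2-1*, where 1 count is worth 0.0306 to 0.0444 CPM.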
